A study of Homo sapiens with 8 samples.

Results

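Cadherins, vimentin and the transcription factors of the mesenchymal state were followed in an osteosarcoma cell line after a plasmid transfection aimed at NELL1. The set was chosen by gene name, with no threshold on a measured value but with earlier results of these data known, and holds 10 of the 54174 gene symbols in the table: 3 cadherins (CDH1, CDH2 and CDH11), vimentin (VIM) and 6 transcription factors (SNAI1, SNAI2, TWIST1, TWIST2, ZEB1 and ZEB2). The cells were 143B, an established human osteosarcoma line derived from HOS cells by transformation with an activated RAS gene. All 8 RNA libraries were made 48 h after transient transfection, 4 from cells that received a NELL1 knockout plasmid (genotype labelled NELL1 knockout) and 4 from cells that received the vector plasmid (genotype labelled control). The design text calls them biological replicates. No selection or cloning of transfected cells is described, so each library is RNA from a bulk culture in which untransfected cells may remain.

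Classical cadherins join neighbouring cells by binding the same kind of cadherin across the gap, and their cytoplasmic tails hold catenins that connect to actin. Epithelial cells carry E-cadherin, the product of CDH1, whereas mesenchymal cells carry N-cadherin (CDH2) and, in bone-forming cells, cadherin-11, also called OB-cadherin (CDH11). The SNAI and ZEB zinc finger proteins repress CDH1 by binding E-box sequences in its promoter, the TWIST proteins are basic helix-loop-helix factors that bind related E-boxes, and vimentin is the intermediate filament protein of mesenchymal cells. Osteosarcoma is a mesenchymal tumour, so low CDH1 with high VIM is its usual state.

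CDH11, VIM and ZEB1 fell in the knockout libraries, and no gene of the set rose past the test. On the deposited log2 scale CDH11 fell by 0.87, VIM fell by 0.43 and ZEB1 fell by 0.27, which are 1.83, 1.35 and 1.21 times lower. All 9 genes of the set other than CDH1 had a value in all 8 libraries. SNAI1 lay under the mean log2 value of 1 required for the test, CDH1 was blank in 6 libraries, and the other 8 genes were tested. Changes were tested with limma over 9016 genes with Benjamini-Hochberg adjustment, and a gene was called at an adjusted p under 0.05. Of the 8 tested genes 3 were called, all lower, where 13.1% of all tested genes were called in either direction and 6.1% were called lower. The values of the groups did not overlap for these 3 genes and overlapped for the other 5, where 22.9% of all tested genes had groups that did not overlap and 10.4% had all knockout values lower.

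Between 14911 and 15171 genes had a value in each library, and the sequencing depth is unknown because no counts are given. NELL1 itself lay near the bottom of the range, from -6.97 to -4.53 in the controls and from -6.96 to -4.82 in 3 knockout libraries with a blank in the other, so its transcript did not check the labels. The knockout libraries stood in close pairs. Over the tested genes, the SD of the difference between libraries was 0.12 for knockout replicates 1 and 2 and 0.13 for knockout replicates 3 and 4, against 0.46 to 0.50 between those pairs and 0.36 to 0.45 between a knockout and a control library. For control libraries it was 0.10 to 0.19 within replicates 1-2 or 3-4 and 0.13 to 0.29 between these sets. Results are therefore also given within replicates 1-2 and within replicates 3-4. Among 9 bone markers, SPARC lay between 5.23 and 6.15, RUNX2, COL1A1 and ALPL were under a log2 value of 1 in every library, COL1A2 and BGLAP had values in 4 and 3 libraries, and IBSP and SP7 were blank. Their summed linear level was 41.6 to 65.9 in the controls and 70.4 to 76.5 in the knockouts, and SPARC was called higher (limma adjusted p = 0.0294). The part of these markers in the results was not tested. Of 6 leukocyte markers, PTPRC and CD3E were blank, CSF1R lay under -3, and CD68, a lysosomal protein gene, lay between 5.54 and 5.90 in all 8 libraries (limma adjusted p = 0.305). The summed linear level of the 6 was 52.9 to 59.9 in the controls and 46.7 to 58.9 in the knockouts, and none of the 6 endothelial markers passed the filter.

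Promoter windows from RefSeq (GRCh38.p14) were matched for 5 of the 10 genes, CDH2, VIM, TWIST2, ZEB1 and ZEB2. VIM is shown because it fell and because its window holds no annotated exon. The line gives the 250 bases before the RefSeq start site at chr10:17227991-17228240 on the plus strand, 5′ to 3′. Capitals mark GGGCGG, the core of the GC box.
VIM: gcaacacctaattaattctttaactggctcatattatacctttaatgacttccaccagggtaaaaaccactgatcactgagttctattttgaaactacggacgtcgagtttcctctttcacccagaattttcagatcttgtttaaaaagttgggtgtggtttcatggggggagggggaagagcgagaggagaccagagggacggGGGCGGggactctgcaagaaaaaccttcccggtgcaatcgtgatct
The GC box begins 46 bases before the start site. Counted on both strands, GGGCGG occurred in 42.6% of 35116 RefSeq windows of that length. The TATA box TATAAA occurred in 10.7% of them and was not in the VIM window. The E-box form CACCTG, which SNAI and ZEB proteins bind, occurred in 17.5% of all windows and in none of the 5 matched ones. A gene can have several start sites and each window covers 1 of them, so these matches describe the letters of the windows and show no binding.

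The cadherins are taken first. CDH1 (chr16:68737225-68835548 in GENCODE 29, GRCh38) had a value in control replicates 2 and 3 only, -7.49 and -7.40, and was blank in the other controls and in all 4 knockout libraries. Both values lay among the lowest 1.41% of the genes with a value in their library. The rule behind a blank is not given in the sources used here, so a blank was kept as missing, no fold was computed and no change of CDH1 can be read from these libraries.

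CDH11 (chr16:64943753-65126112, protein coding, minus strand) was 4.21, 4.20, 4.90 and 4.56 in control replicates 1 to 4 and 3.16, 3.38, 3.93 and 3.92 in knockout replicates 1 to 4. Every knockout value was under every control value, and in both groups replicates 3 and 4 were above replicates 1 and 2. The mean fell from 4.47 ± 0.33 to 3.60 ± 0.39 (SD, n = 4 each), a change of -0.87 ± 0.22 (SE; 95% interval -1.37 to -0.37; limma adjusted p = 0.0364). The change was -0.94 within replicates 1-2 and -0.80 within replicates 3-4, and ranged from -1.04 to -0.63 over the 4 same-numbered pairs. A fit that blocked on the replicate number gave a limma adjusted p of 0.0107. Whether fewer cells with cadherin-11 RNA or less of it per cell lay behind the value cannot be told apart in bulk RNA, which holds for every gene here.

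CDH2 (chr18:27950966-28177446, minus strand) was 4.31, 4.40, 4.57 and 4.51 in control replicates 1 to 4 and 4.47, 4.55, 4.56 and 4.52 in knockout replicates 1 to 4. The groups overlapped. The difference of 0.08 had a 95% interval from -0.09 to 0.24 (limma adjusted p = 0.519). The 95% intervals of CDH11 and CDH2 did not overlap. Within a library, the CDH11 value minus the CDH2 value ran from -0.19 to 0.33 in the controls and from -1.30 to -0.60 in the knockouts. The difference is given without a test and compares libraries, not the levels of the genes.

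**Figure D1:**
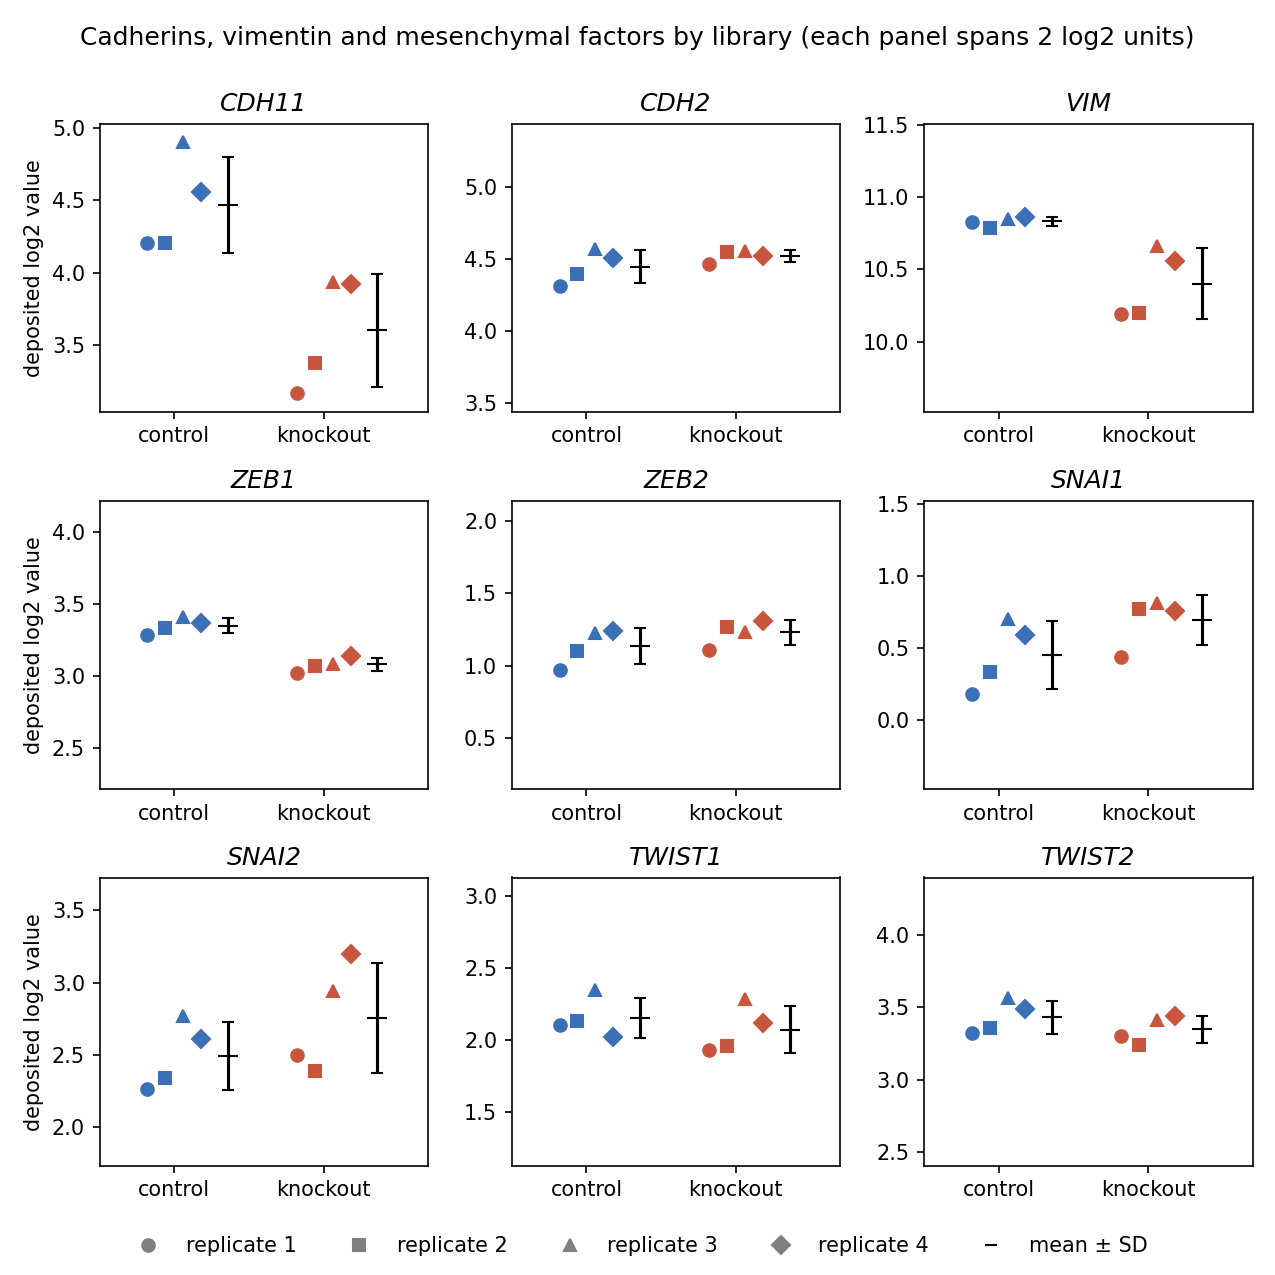
Deposited log2 value (vertical axis, 2 log2 units in each panel) of 9 genes in the 4 control and 4 knockout libraries. Symbols mark the replicate number and the black bar the mean ± SD of the group. CDH11, VIM and ZEB1 are the panels in which all knockout points lie under all control points, and CDH1 is not drawn because 6 of its 8 cells were blank.

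VIM (chr10:17228259-17237593, plus strand) was one of the most abundant entries of the table, above 99.7% of the genes with a value in each library, although the sources do not say whether values are per transcript length. It was 10.83, 10.79, 10.85 and 10.87 in control replicates 1 to 4 and 10.19, 10.20, 10.66 and 10.56 in knockout replicates 1 to 4. The controls lay close together, all knockouts were lower, and knockout replicates 1 and 2 were the lowest. The mean fell from 10.83 ± 0.03 to 10.40 ± 0.24 (SD, n = 4 each), a change of -0.43 ± 0.12 (SE; 95% interval -0.69 to -0.17; limma adjusted p = 0.0425). Vimentin was still among the highest values in the knockout libraries. Its change was -0.62 in replicates 1-2 and -0.25 in replicates 3-4, where the limma adjusted p was 0.0579. With the replicate number as a block VIM was no longer called (limma adjusted p = 0.0507). The antisense partner VIM-AS1 was blank in all 8 libraries.

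Among the transcription factors, the ZEB genes come first. ZEB1 (chr10:31318495-31529814, plus strand), a zinc finger and homeodomain repressor, was 3.28, 3.34, 3.41 and 3.37 in control replicates 1 to 4 and 3.02, 3.07, 3.08 and 3.14 in knockout replicates 1 to 4. All knockout values were lower than all control values, and the 4 knockout libraries lay close together. The mean went from 3.35 ± 0.05 to 3.08 ± 0.05 (SD, n = 4 each), a change of -0.27 ± 0.06 (SE; 95% interval -0.41 to -0.13; limma adjusted p = 0.0247). It was -0.26 in replicates 1-2 and -0.28 in replicates 3-4. With the replicate block it was no longer called (limma adjusted p = 0.0571).

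ZEB2, the paralogue with the same domain plan, was 0.97, 1.10, 1.23 and 1.24 in control replicates 1 to 4 and 1.11, 1.27, 1.23 and 1.31 in knockout replicates 1 to 4. Groups overlapped, and the difference of 0.10 had a 95% interval from -0.09 to 0.28 (limma adjusted p = 0.473). That interval does not overlap the interval of ZEB1. The ZEB1 value minus the ZEB2 value ran from 2.13 to 2.31 within the control libraries and from 1.80 to 1.91 within the knockout libraries, given without a test. The antisense genes ZEB1-AS1 and ZEB2-AS1 were blank in all 8 libraries.

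SNAI1, which encodes Snail, had a mean of 0.57, below the filter. It was 0.18, 0.33, 0.70 and 0.59 in control replicates 1 to 4 and 0.44, 0.77, 0.81 and 0.76 in knockout replicates 1 to 4. The knockout value was higher in 4 of 4 same-numbered pairs, yet the groups overlapped, since knockout replicate 1 lay under control replicates 3 and 4. The difference of 0.24 did not pass the test (p = 0.171 in an exact permutation test of 4 against 4, two-sided, which cannot go below 0.0286). Over the same-numbered pairs the difference ran from 0.11 to 0.43 (p = 0.125 when signs were flipped in an exact permutation test, the smallest that 4 pairs allow). In limma fits with no filter its adjusted p was 0.317 without and 0.173 with the replicate block, where its unadjusted p was under 0.05. The paired values were added after the data were seen.

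SNAI2, which encodes Slug, was 2.26, 2.34, 2.76 and 2.61 in control replicates 1 to 4 and 2.50, 2.38, 2.94 and 3.20 in knockout replicates 1 to 4. In both groups replicates 3 and 4 were the high ones, and the groups overlapped. The difference of 0.26 had a wide 95% interval, from -0.18 to 0.70 (limma adjusted p = 0.404), which contains both no change and a rise as large as the fall of VIM. Same-numbered pairs had the knockout value higher in 4 of 4. Within replicates 3-4 the difference was 0.38 (limma adjusted p = 0.0318), and within replicates 1-2 it was 0.14 (limma adjusted p = 0.0800), in fits that called 33.1% and 59.7% of all tested genes.

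TWIST1 and TWIST2 encode closely similar proteins, and how reads shared by both genes were assigned is not given in the sources used here. TWIST1 was 2.10, 2.14, 2.35 and 2.02 in control replicates 1 to 4 and 1.93, 1.96, 2.29 and 2.12 in knockout replicates 1 to 4. Its difference of -0.08 had a 95% interval from -0.31 to 0.16 (limma adjusted p = 0.655). The difference was -0.17 in replicates 1-2, where it was called (limma adjusted p = 0.0205) in a fit that called 59.7% of all tested genes. In replicates 3-4 it was 0.02, close to no change (limma adjusted p = 0.929). TWIST2 was 3.32, 3.36, 3.56 and 3.49 in control replicates 1 to 4 and 3.30, 3.24, 3.41 and 3.44 in knockout replicates 1 to 4. The knockout value was lower in 4 of 4 same-numbered pairs, by 0.15 or less, and the 95% interval of the difference of -0.08 ran from -0.27 to 0.10 (limma adjusted p = 0.528).

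**Figure D2:**
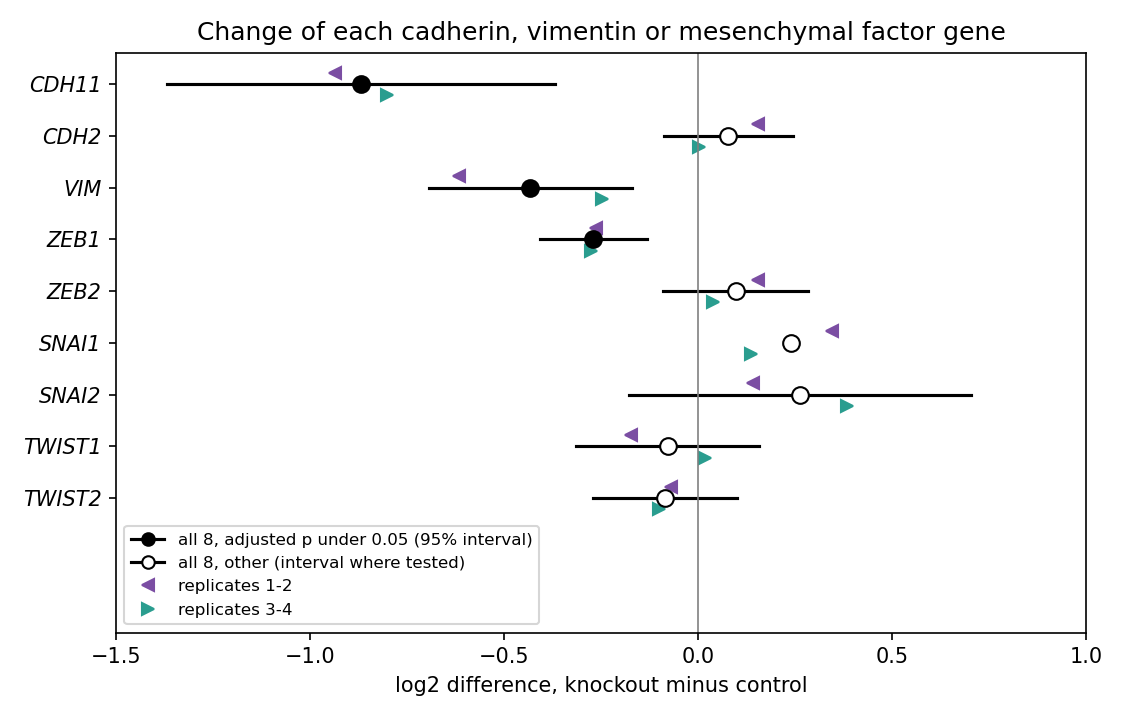
Log2 difference between knockout and control (horizontal axis) for 9 genes over all 8 libraries (circles, filled where the limma adjusted p is under 0.05), with 95% intervals for the 8 tested genes. Triangles give the difference within replicates 1-2 and within replicates 3-4: CDH11 and ZEB1 have similar values in both sets, VIM has -0.62 and -0.25, and TWIST1 has -0.17 and 0.02.

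The calls of CDH11, VIM and ZEB1 rested on small margins. With the replicate number as a block, 1 of 8 genes was called, CDH11, where 10.2% of all tested genes were called. When each close pair of knockout libraries was averaged and counted as 1 library, limma called 0 of 8, with 3 of 8 at an unadjusted p under 0.05, where 1.2% of all tested genes were called and 20.6% had an unadjusted p under 0.05. The adjusted p-values were then 0.134 for CDH11, 0.132 for VIM and 0.152 for ZEB1. Leaving out any one of control replicates 1, 2 and 4 or knockout replicates 1 and 2 also left 0 of 8 called by limma, with 3 of 8 at an unadjusted p under 0.05 in each of those 5 fits. These fits called 4.34% to 9.55% of all tested genes and had 22.7% to 28.9% of them at an unadjusted p under 0.05. Without control replicate 3 only ZEB1 was called, where 15% of all tested genes were called. Without knockout replicate 3 only CDH11 and VIM were called (7.94% of all tested genes), and without knockout replicate 4 all 3 (10.1%). The direction of these 3 genes was the same in every fit, which adds no support. All their knockout values lay under all their control values, so leaving out or averaging libraries could not reverse it. In the leave-one-out fits the change ranged from -0.98 to -0.72 for CDH11, from -0.52 to -0.36 for VIM and from -0.29 to -0.25 for ZEB1.

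**Figure D3:**
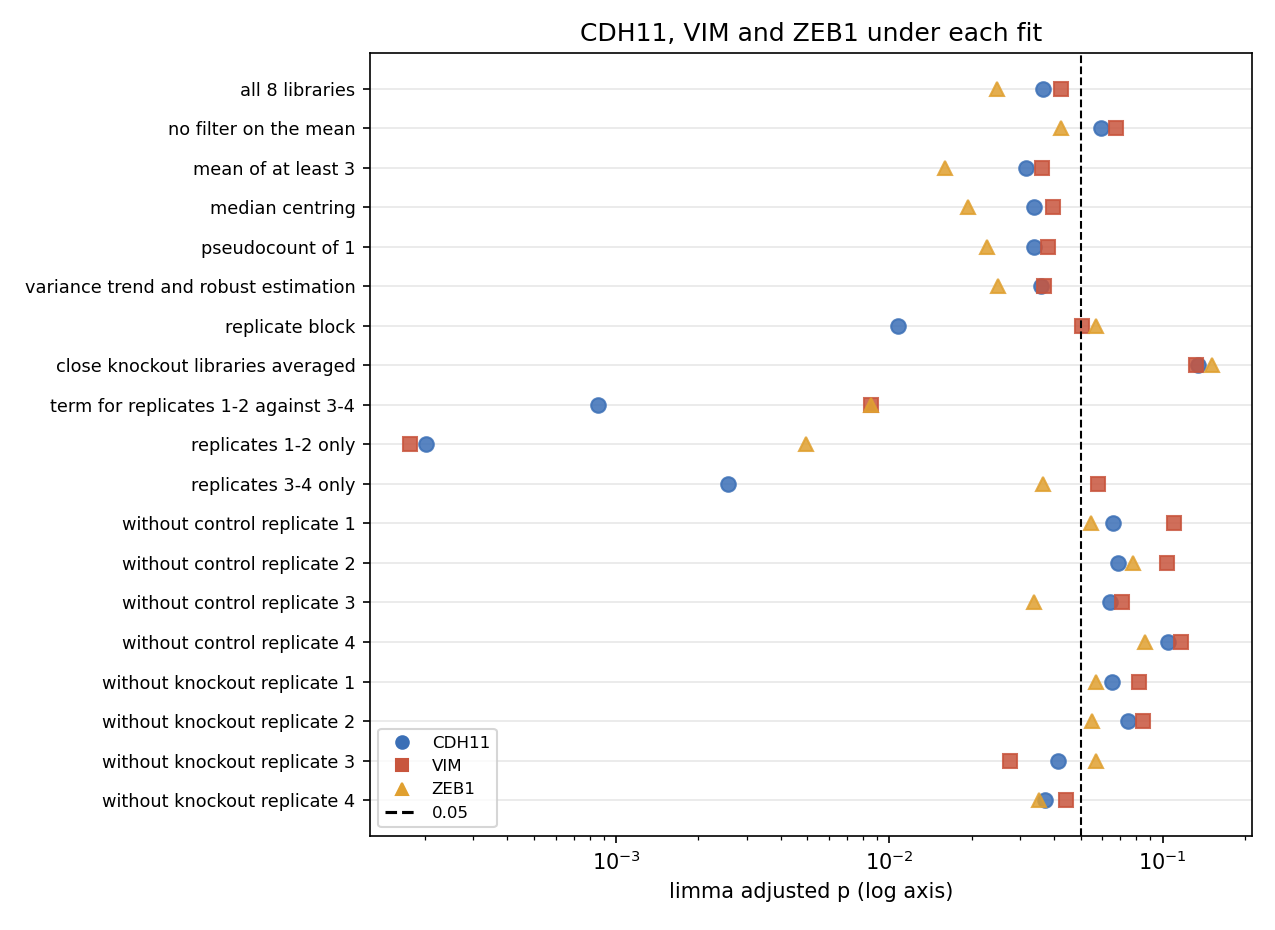
Limma adjusted p (horizontal log axis) of CDH11, VIM and ZEB1 in each fit (rows), with the threshold of 0.05 as a dashed line. All 3 lie left of the line with all 8 libraries, CDH11 alone with the replicate block, and none when the close knockout libraries are averaged.

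The genes whose values followed CDH11, VIM and ZEB1 most closely were found by Pearson's r over the 8 libraries, a description in which both the groups and the replicate sets take part. CDH11 was most like CKAP4 (r = 0.99, a cytoskeleton-linking membrane protein), RTN1 (r = 0.99) and LRATD2 (r = 0.99). VIM was most like WARS2, ITM2C and the integrin subunit ITGB5 (r = 0.99 each). ZEB1 was most like SH3BGRL3, the ubiquitin ligase subunit FBXO32 and the histone demethylase KDM2A (r = 0.99 each). Of these 9 genes all were lower in the knockouts, which follows from the likeness, from -0.22 for CKAP4 to -1.42 for FBXO32.

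Catenins and other junction genes were then described as a list of 31 genes, of which 6 were blank throughout and 10 were tested. CTNNB1 and AFDN were called lower, and no gene of the list was called higher. That is 20% of the tested genes of the list, where 13.1% of all tested genes were called in either direction and 6.1% were called lower. Of the 10 tested genes 6 had a difference below 0. CTNNB1 encodes beta-catenin, which binds the tail of N-cadherin and cadherin-11 and also carries Wnt signals. It was 6.73, 6.81, 6.73 and 6.78 in control replicates 1 to 4 and 6.44, 6.48, 6.54 and 6.47 in knockout replicates 1 to 4. Every knockout value was lower, and the change of -0.28 ± 0.06 (SE; limma adjusted p = 0.0180) was -0.31 in replicates 1-2 and -0.25 in replicates 3-4. AFDN, the actin-binding partner of the nectins, changed by -0.30 ± 0.08 (SE; limma adjusted p = 0.0418). The limma adjusted p was 0.0562 for CTNNB1 and 0.0759 for AFDN with the replicate block, and 0.136 and 0.196 with the knockout pairs averaged. Without control replicate 1, 2 or 4 neither was called, and without any one knockout library CTNNB1 alone was.

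CTNND1, which encodes p120-catenin, had a difference of -0.19 (limma adjusted p = 0.417), with -0.40 in replicates 1-2 and 0.01 in replicates 3-4. The median change of the 10 tested genes was -0.09, against 0.01 over all tested genes. Among the other cadherins, only CDH4 and CDH13 passed the filter, and neither was called. CDH4 differed by 0.75 (limma adjusted p = 0.123), with 1.15 in replicates 1-2 and 0.34 in replicates 3-4. It was called higher with a term for the replicate sets (limma adjusted p = 0.0231) and without control replicate 3. CDH13 differed by -0.17 (limma adjusted p = 0.486), with opposite signs in the replicate sets, 0.18 in replicates 1-2 and -0.52 in replicates 3-4. It was called in both single-set fits, which called 59.7% and 33.1% of all tested genes. Endothelial CDH5 was blank in 2 libraries, and the epithelial P-cadherin gene CDH3 had a mean of -5.99.

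Epithelial genes, the class that SNAI and ZEB proteins repress, were mostly low: of 40 genes, 13 passed the filter. KRT8, which encodes a keratin of simple epithelia, was called higher, and no gene of the list was called lower. Of the 13 tested genes 7 had a difference below 0. KRT8 was 6.54, 6.52, 6.62 and 6.63 in control replicates 1 to 4 and 6.86, 6.84, 7.02 and 7.10 in knockout replicates 1 to 4. All knockout values were higher, and the change of 0.38 ± 0.08 (SE; limma adjusted p = 0.0175) was 0.32 in replicates 1-2 and 0.44 in replicates 3-4. KRT8 was no longer called with the knockout pairs averaged (limma adjusted p = 0.104) or without control replicate 1, 2 or 4 (limma adjusted p up to 0.0683). Its filament partner KRT18 differed by 0.19 (limma adjusted p = 0.100). Both keratin genes have processed pseudogene copies, and how reads shared with these were counted is not given in the sources used here. The VIM value minus the KRT8 value ran from 4.23 to 4.29 within the control libraries and from 3.33 to 3.64 within the knockout libraries. That separation follows from the separate changes of VIM and KRT8 already given, so it adds no result and is given without a test.

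OCLN, which encodes the tight junction protein occludin, differed by 0.53 (limma adjusted p = 0.0560) and was called with the replicate block (limma adjusted p = 0.0274). Another tight junction gene, CLDN3, went the other way by a similar margin, with -0.42 (limma adjusted p = 0.0569, and 0.0635 with the replicate block). KLF4 differed by -0.71 (limma adjusted p = 0.260), with -0.04 in replicates 1-2 and -1.37 in replicates 3-4. The share of tested genes called in the epithelial list was 7.69%, against 13.1% over all tested genes, and the median change was -0.03. Of the 8 epithelial markers fixed for the cell check, EPCAM, KRT8 and KRT18 passed the filter, GRHL2 was blank, and CLDN4, CLDN7, KRT19 and ESRP1 lay under -2 wherever they had a value. The summed linear level of the 8 was 535 to 578 in the controls and 611 to 702 in the knockouts. KRT18 (control mean 8.84, knockout mean 9.03) and KRT8 (6.58 and 6.95) weighed most in that sum. The other markers with a value in every library were lower in the knockouts, EPCAM (2.59 and 2.27) and CLDN4 (-2.71 and -3.39). The part of the summed level in the falls of CDH11, VIM and ZEB1 was not tested.

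Vimentin's neighbours in the filament system were a list of 16 genes, 7 of them tested. PLEC, which encodes plectin, the large linker that ties vimentin and keratin filaments to junctions and actin, was the one gene called. It was 4.93, 4.87, 5.09 and 5.07 in control replicates 1 to 4 and 3.92, 4.13, 4.38 and 4.43 in knockout replicates 1 to 4. No values overlapped. The change of -0.77 ± 0.12 (SE; limma adjusted p = 0.00705) was -0.87 in replicates 1-2 and -0.67 in replicates 3-4. PLEC was still called with the replicate block (limma adjusted p = 0.0125), with the knockout pairs averaged (limma adjusted p = 0.0499) and in all 8 leave-one-out fits. The list had 14.3% of its tested genes called, against 13.1% over all tested genes, and the median change of the 7 genes was 0.08. The nuclear lamin gene LMNA had a difference of 0.08 (limma adjusted p = 0.786), which averages opposite differences. It was -0.27 in replicates 1-2 and 0.42 in replicates 3-4. LMNA was called in both single-set fits, which called 59.7% and 33.1% of all tested genes.

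Cofactors and regulators of the SNAI, TWIST and ZEB proteins were a list of 51 genes, 45 of them tested. AJUBA, DNMT3B, EED, EZH2 and SUZ12 were called higher and no gene was called lower, with 22 of the 45 differences below 0. EZH2 and SUZ12 fall outside the rule for named genes and were named after their values were seen. The 11.1% of tested genes called in the list is close to the 13.1% over all tested genes, and the median change was 0.00. AJUBA, a LIM protein that bridges Snail to its repressor complexes and also sits at cell junctions, was 2.81, 2.86, 2.89 and 2.88 in control replicates 1 to 4 and 3.72, 3.79, 3.37 and 3.34 in knockout replicates 1 to 4. Knockout replicates 1 and 2 were the highest, and the change of 0.69 ± 0.11 (SE; limma adjusted p = 0.00789) was 0.92 in replicates 1-2 and 0.47 in replicates 3-4.

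EED, EZH2 and SUZ12 encode the core of Polycomb repressive complex 2, which writes the repressive methyl mark on histone H3 and can be brought to CDH1 by Snail. EED was 1.85 to 2.19 in the controls and 2.43 to 2.54 in the knockouts, a change of 0.37 (limma adjusted p = 0.0292). EZH2, the catalytic subunit, was 1.86 to 2.08 and 2.25 to 2.38, a change of 0.33 (limma adjusted p = 0.0200). SUZ12 was 2.63 to 2.73 and 2.93 to 3.07, a change of 0.28 (limma adjusted p = 0.0229). None of these 3 genes had overlapping groups, which held for 8 of the 45 tested genes of the list and for 22.9% of all tested genes. The DNA methyltransferase DNMT3B rose by 0.52 (limma adjusted p = 0.0306). With the replicate block SUZ12 was no longer called (limma adjusted p = 0.0533), and with the knockout pairs averaged none of the 45 genes was called by limma. AJUBA was called whichever library was left out, and without control replicate 1 or 4 it was the only one of the 45.

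The ZEB corepressor CTBP2 had a difference of -0.27 (limma adjusted p = 0.0778) and CTBP1 of -0.13 (limma adjusted p = 0.392). ID1, an inhibitor that binds the partners of TWIST proteins, was 3.86 to 5.22 in the controls and 4.68 to 5.83 in the knockouts. Its difference of 0.85 was not called over the 8 libraries (limma adjusted p = 0.160) and was called with the replicate block (limma adjusted p = 0.0128). List genes named without a call, other than CTNND1, were chosen after their values were seen.

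**Figure D4:**
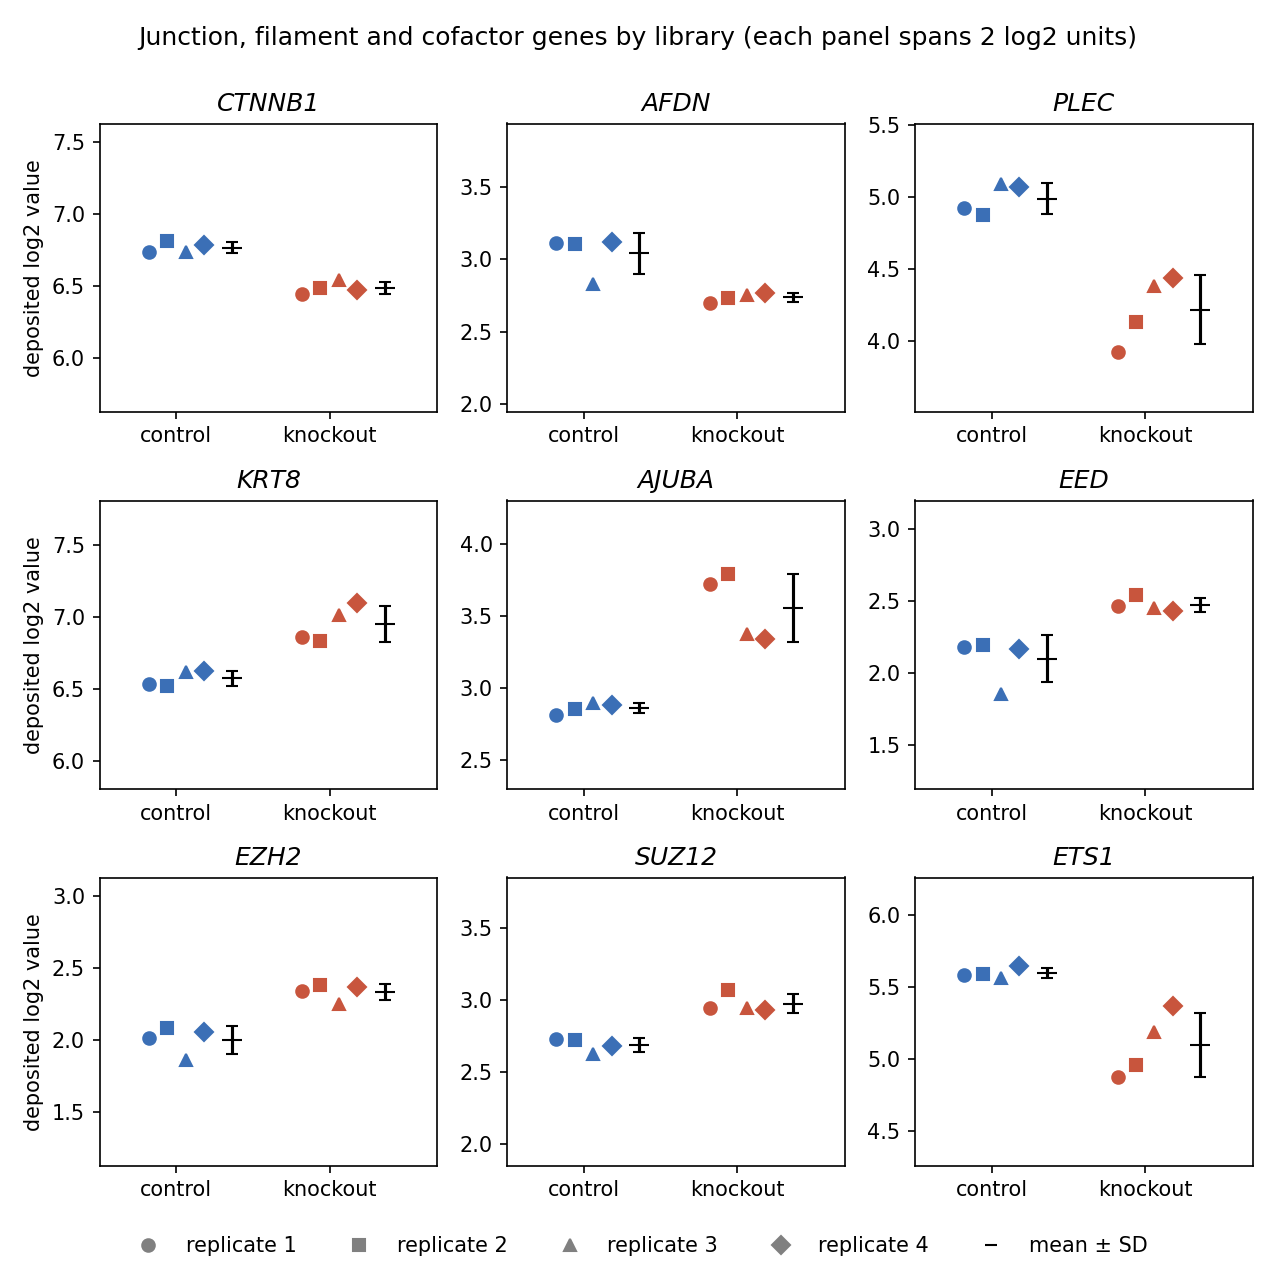
Deposited log2 value (vertical axis, 2 log2 units in each panel) of 9 junction, filament, cofactor and transcription factor genes in the 4 control and 4 knockout libraries, with symbols for the replicate number and the mean ± SD as a black bar. CTNNB1, AFDN, PLEC and ETS1 have all knockout points under all control points, and KRT8, AJUBA, EED, EZH2 and SUZ12 have them above.

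Other transcription factors linked to the epithelial-mesenchymal transition were a list of 31 genes, 22 of them tested. In all, 4 were called, and ETS1, PRRX2 and YAP1 were the 3 lower ones. ETS1 was 5.56 to 5.64 in the controls and 4.87 to 5.37 in the knockouts, a change of -0.50 ± 0.11 (SE; limma adjusted p = 0.0222) that was -0.67 in replicates 1-2 and -0.33 in replicates 3-4. PRRX2, a homeobox factor of limb and skeletal mesenchyme, changed by -0.42 (limma adjusted p = 0.0367). YAP1, the Hippo pathway coactivator, changed by -0.25 (limma adjusted p = 0.0407). The list had 18.2% of its tested genes called, against 13.1% over all tested genes, and a median change of 0.00. With the replicate block YAP1 was no longer called (limma adjusted p = 0.0969), and with the knockout pairs averaged none of the 22 genes was. Of ETS1, PRRX2 and YAP1, PRRX2 alone was called without control replicate 1, none without control replicate 2 or 4, and ETS1 alone without any one of the other libraries. SNAI3, the third SNAI gene, had a mean of -2.59 and was not tested.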

How the data were processed

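Total RNA of 143B cells was sequenced in 8 libraries, extracted with TRIzol and made with a stranded total-RNA kit, per the labels' protocols. The authors deposited 1 log2 value per gene symbol and library. The submitters' processing notes name bcl2fastq, Partek 7.0 and GRCh38. The aligner, counting program, annotation, rule for blanks and unit before the logarithm are not given in the sources used here, and base 2 was inferred from the range. All libraries had the same median (1.77) and highest value (12.1), so the values are quantile normalized and show changes relative to other genes. Depth is unknown, and precision rests on the spread between libraries.

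Knockout was compared with control in a linear model with moderated variances and no trend (limma 3.58.1, R 4.3.3) on 9016 genes with 8 values and a mean of at least 1, with Benjamini-Hochberg adjustment over all of them. SNAI1 was compared by an exact permutation test. On simulated data the fit was checked to recover known changes. Columns were matched to samples by their description labels.

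The genes, the lists (other cadherins and catenins, epithelial genes, cofactors and regulators, other transcription factors, intermediate filament genes) and the alternatives were chosen with earlier results of these data known. Named genes were all 10 of the set, NELL1, CTNNB1, CTNND1, up to 3 higher and 3 lower called genes of each list with the largest change, and the 3 genes most like each called one. Alternatives were median centring, no filter on low values, a stricter filter (mean of at least 3), a pseudocount of 1, a variance trend, a replicate block, averaged knockout pairs, a term for or use of single replicate sets, and leaving out each library. Same-numbered libraries deviated from their group means together (r across genes 0.20 to 0.29 in the 4 pairs), and so did different numbers within a set (0.11 to 0.31), so blocked values are given where they change a call. The replicate numbers come from the sample titles, which do not say what a number shares. Some genes of the lists are counted but not reported here by name. Positions are from GENCODE 29 and promoters from RefSeq.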

Additional observations from a re-analysis of the deposited data

Results flagged for a closer look

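SNAI1 in knockout replicate 1 was 0.44, apart from the other 3 knockout libraries at 0.76 to 0.81, a gap large for a group of 4. It was found among the 18 groups of 4 values examined, and about 1 group in 20 is expected to show such a gap by chance. Without that library the difference of SNAI1 was 0.33 in place of 0.24.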

How the results depend on the processing

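Over all 8 libraries limma called 1183 of 9016 genes, of which 3 of the set, 2 of the other cadherins and catenins, 1 epithelial gene, 5 cofactors and regulators, 4 other transcription factors and 1 intermediate filament gene. With the knockout pairs averaged, the count was 108 over all genes and 0 in the set and in each list, apart from the filament list, which stayed at 1. The other counts that moved by over 1.5 times are grouped by setting, and the remaining counts stayed within that.

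With no filter the set had 1, the other transcription factors 1 and the filament genes 2, where 8.3% of all genes in that fit were called. ZEB1 kept its call there (limma adjusted p = 0.0425), and CDH11 (limma adjusted p = 0.0595) and VIM (limma adjusted p = 0.0675) lost theirs. With a mean of at least 3 the total was 729 of only 4684 genes, a share of 15.6% against 13.1% in the main fit. There 1 of 5 cadherin or catenin genes, 1 of 28 cofactors and 2 of 9 other transcription factors were called. A term for replicates 1-2 against 3-4 gave 2274 in all, 3 epithelial genes, 8 cofactors, 10 other transcription factors and 2 filament genes. Replicates 1-2 alone gave 5380 in all, 7 cadherin or catenin genes, 8 epithelial genes, 27 cofactors, 13 other transcription factors and 4 filament genes. Replicates 3-4 alone gave 2987 in all, 6 epithelial genes, 15 cofactors, 10 other transcription factors and 5 filament genes. TWIST1 changed sign there, to a value close to no change (0.017, limma adjusted p = 0.929).

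With the replicate block the set had 1, the cadherins and catenins 0 and the epithelial genes 2. Among the genes of the set and lists reported here, the block ended the calls of VIM, ZEB1, CTNNB1, AFDN, SUZ12 and YAP1, added OCLN, ID1 and HMGA2 (limma adjusted p = 0.0497), and changed no other call.

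Leaving out 1 library gave 391 (without control replicate 4) to 1353 (without control replicate 3) genes in all, 0 to 3 of the set, 0 to 3 cadherin or catenin genes, 0 to 2 epithelial genes, 1 to 7 cofactors, 0 to 2 other transcription factors and 1 filament gene. The cause of these shifts was not tested. Median centring, a pseudocount of 1 and a variance trend left CDH11, VIM and ZEB1 called, and a fit with no filter left ZEB1 alone of them called. Depth is unknown, so blanks and low values such as those of CDH1 cannot be read further.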
